A study of Homo sapiens with 132 samples.

Results

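The effect of afatinib on the transcriptome of NCI-N87 cells that also received trastuzumab was measured after 24 h. NCI-N87 is an established gastric cancer cell line with a high level of ERBB2. The comparison took the libraries whose labels name this cell line, the 24 h time point and the treatments trastuzumab (Tra, 3 libraries) or trastuzumab + afatinib (Tra+Afa, 3 libraries). These were 6 of the 48 libraries of NCI-N87 and MKN7 cells read here. The series covers several gastric cancer lines treated with EGF, cetuximab, trastuzumab, afatinib or combinations of them. Of the genes counted, 18483 passed the filter on low counts and were tested.

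Trastuzumab, an antibody against the extracellular part of ERBB2 (HER2), was given at 5 µg/ml in both groups. Afatinib, which binds irreversibly to the kinase domains of EGFR, ERBB2 and ERBB4, was added at 0.5 µM in the Tra+Afa group only. Cells grew in RPMI medium with fetal calf serum, and libraries were made from polyA RNA with a directional kit. Labels give each treatment as 3 numbered biological replicates. Afatinib was dissolved in DMSO and trastuzumab in an aqueous histidine and trehalose buffer. The labels do not name DMSO for the Tra group and no DMSO library was analysed here, so the effects of afatinib and of DMSO cannot be told apart. All values come from 1 established line in culture, without stroma, immune cells or drug gradients.

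Receptors of the ERBB family pair at the cell surface and pass signals to the RAS-MAPK cascade and to PI3K-AKT. MAPK activity switches on immediate early genes and also the Sprouty and dual-specificity phosphatase genes that restrain the cascade itself, which makes these genes a common transcript readout of pathway output. AKT keeps FOXO transcription factors out of the nucleus, and cyclin D with its kinases releases E2F factors, which drive the genes of DNA replication. Cells that depend on an amplified ERBB2 gene are known to stop dividing when its kinase is inhibited.

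The 12 NCI-N87 libraries at 24 h, which include untreated and afatinib-only cells, held 38788878 to 51830046 counts each, so that 3 counts corresponded to 0.05788 to 0.07734 CPM (counts scaled to a common library total). Replicates differed by more than sampling noise, with a chi-square per degree of freedom of 14.4 to 60.6 between libraries of a group. Levels below are normalised CPM, which are scaled by the trimmed mean of M values and describe the share of a transcript rather than its amount per cell. Of 520 distinct genes on the 25 lists used here, 62 were not tested, and 30 of them were listed at 0 in all 12 libraries, including CDK2 and JUNB, which dividing cells generally express, so a listed 0 carries no information. Summed over 8 epithelial markers, unscaled CPM was 18771 to 21982 in the Tra libraries and 12413 to 13235 in the Tra+Afa libraries. Of these markers KRT8 and KRT18 fell, and the median log2FC of all 8 was −0.01. The 12 markers of fibroblasts, leukocytes and endothelium summed to 16.5 to 22.4 and 32.3 to 37.1 unscaled CPM. Most of that sum was COL1A1 (14.7 to 31.1 CPM), whereas DCN and CD3E reached at most 1 count. CD68 and MS4A1 were listed at 0 and are not read, for the reason given above.

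Promoter sequences are shown for replication and mitosis genes, in which 36 of 38 and 23 of 34 tested members fell. RefSeq promoter windows of 300 bases (250 before and 50 after a start site, GRCh38.p14) were available for 27305 genes and for 397 of the 520 list members, and were searched on both strands. An E2F-type motif (TTTGGCGC, TTTGCCGC, TTTCGCGC or TTTCCCGC) was present in 18 of 34 DNA replication genes with a window, against 3.99% of all genes. The cell cycle genes homology region (CHR, TTTGAA or TTCGAA) was present in 22 of 28 mitosis genes against 19.5% of all genes, and the CCAAT box in 23 of 28 against 39.7%. An E-box (CACGTG) was present in 13 of 26 ribosome biogenesis genes against 8.77% of all genes. The FOXO motif GTAAACA was found in 4 of 17 FOXO and PI3K genes against 4.19%, and the MAPK list held the ETS motif CCGGAAG in 2, the CRE motif TGACGTCA in 1 and the AP-1 motif TGACTCA in 3 of 19 genes, against 12.2%, 2.25% and 6.05%. Other lists also held motifs above the all-gene share, such as AP-1 in 5 of 16 chemokine and cytokine genes, CCAAT in 12 of 15 cholesterol and fatty acid genes and E2F in 4 of 17 G1 genes. A match is a description of letters, not a bound site or a cause. Each stretch shows the 150 bases before the start site, 5′ to 3′ on the strand of the gene. Stretches are given for some of the genes that fell. The single window of each holds a match within the stretch, and the stretch lies outside the gene's annotated span. Capitals mark E2F-type motifs in MCM6 (chr2:135876444-135876593, minus strand) and POLA1 (chrX:24693768-24693917, plus strand), and CHR and CCAAT motifs in MKI67 (chr10:128126424-128126573, minus strand) and KIF11 (chr10:92592980-92593129, plus strand), each read on either strand. In MCM6 the motifs of both strands overlap, and in MKI67 a CHR overlaps a CCAAT box read on the other strand.
MCM6: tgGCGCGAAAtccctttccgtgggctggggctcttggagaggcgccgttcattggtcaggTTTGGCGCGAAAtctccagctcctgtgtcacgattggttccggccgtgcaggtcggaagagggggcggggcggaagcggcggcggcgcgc
POLA1: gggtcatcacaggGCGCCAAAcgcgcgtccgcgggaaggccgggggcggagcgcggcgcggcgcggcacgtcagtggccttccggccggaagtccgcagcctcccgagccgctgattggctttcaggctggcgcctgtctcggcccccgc
MKI67: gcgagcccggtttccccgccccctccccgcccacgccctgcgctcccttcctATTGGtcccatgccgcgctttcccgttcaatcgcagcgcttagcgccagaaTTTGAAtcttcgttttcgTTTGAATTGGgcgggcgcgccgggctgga
KIF11: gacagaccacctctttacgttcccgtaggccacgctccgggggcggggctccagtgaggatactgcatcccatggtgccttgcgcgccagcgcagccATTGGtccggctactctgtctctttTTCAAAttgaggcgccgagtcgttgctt

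Afatinib added to trastuzumab changed 5477 genes by the criteria of the study, which asked for an adjusted p under 0.05 together with a log2FC beyond 1 in either direction. Of these, 3409 genes (18.4% of those tested) were higher and 2068 (11.2%) were lower in Tra+Afa than in Tra cells. By adjusted p alone, 37.1% of the genes were higher and 35.8% lower. The balance of rises and falls depended on scaling: 62.2% of the called genes were higher with the trimmed mean of M values, and 79.3% when libraries were scaled by their total alone, which moved the median log2FC of all genes from 0.03 to 0.32. Below, "rose" and "fell" are used for genes past both criteria, and the median of a list is read against the all-gene median of 0.03. Rises and falls counted in a list for this comparison are read against the all-gene shares of 18.4% and 11.2%. Scaling by library total alone called 4720 of the 18483 genes higher and 1230 lower. Groups that do not overlap were common. Every Tra+Afa library was above every Tra library for 6389 of the 18483 genes, and below for 6058.

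The 10 largest rises and 10 largest falls were taken among genes with a mean log2 CPM above 1, and only genes that moved the same way in all 3 pairs of equal replicate number were eligible. BMF, a BH3-only activator of mitochondrial apoptosis (chr15:40087890-40108892, hg38), stood at 7.86, 7.71 and 6.26 CPM in the Tra libraries and at 103.6, 103.5 and 94.6 CPM in the Tra+Afa libraries. Groups were far apart, and the change was 13.8-fold (log2FC 3.79, SE 0.08, adjusted p 1.02e-13). PIK3IP1, an inhibitor of the catalytic subunit of PI3K, had 16.3, 10.7 and 9.36 CPM with trastuzumab and 164.2, 148.9 and 162.5 CPM with both drugs (log2FC 3.74, SE 0.12, adjusted p 2.85e-12). TNFSF10, which encodes the death ligand TRAIL, went from 18.3, 13.6 and 11.7 CPM to 183.04, 162.9 and 154.2 CPM (log2FC 3.54, SE 0.10, adjusted p 8.72e-13). In each of these genes the lowest Tra+Afa library was several-fold above the highest Tra library.

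The remaining large rises were of genes with diverse roles. C6orf222 showed the largest fold of the named genes, from 0.669, 0.247 and 0.123 CPM to 21.6, 12.5 and 14 CPM (log2FC 5.57, SE 0.18, adjusted p 2.36e-12), so its Tra values rest on few counts. LDLRAD1 rose by a log2FC of 4.78, and SCTR, the secretin receptor, by 4.16. BCAS1 had 17.8, 9.79 and 6.14 CPM with trastuzumab and 160.8, 128.1 and 118.9 CPM with both drugs (log2FC 3.67, SE 0.16), and CSPG4, a membrane chondroitin sulfate proteoglycan, rose by a log2FC of 3.46. COLCA1 (log2FC 3.90) and AL021392.1 (log2FC 3.57) are annotated as antisense transcripts, and since the strand setting of the counting was not given in the sources used here, their reads cannot be told apart from those of overlapping genes. Replicate 1 was the highest Tra library for each of these genes except AL021392.1. Every Tra+Afa library exceeded every Tra library for each of the 10 genes, which were chosen as the largest rises.

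Among the falls, genes induced by MAPK signalling led. SPRY4, a feedback inhibitor of receptor tyrosine kinase signalling (chr5:142310427-142326455, hg38), had 19, 24.6 and 17.7 CPM in the Tra libraries and 0.568, 0.425 and 0.417 CPM in the Tra+Afa libraries, 42.4-fold lower (log2FC −5.41, SE 0.17, adjusted p 2.36e-12). DUSP6, the phosphatase of ERK, went from 24, 50.4 and 29.7 CPM to 0.88, 0.872 and 1.4 CPM (log2FC −4.99, SE 0.20, adjusted p 1.6e-11). EGR1, an immediate early transcription factor, had 106.3, 346.4 and 109.5 CPM with trastuzumab and 6.22, 4.7 and 7.01 CPM with both drugs (log2FC −4.74, SE 0.37, adjusted p 1.89e-08). The second Tra replicate was the highest for DUSP6 and EGR1, yet no library of one group reached the other. ETV5 (log2FC −4.33) and FOSL1 (−3.64), transcription factors downstream of MAPK signalling, completed this set.

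Other large falls were of genes with different roles. TERT, the catalytic subunit of telomerase, had 14.2, 16.3 and 14.5 CPM with trastuzumab and 0.807, 0.716 and 1.17 CPM with both drugs (log2FC −4.06, SE 0.15, adjusted p 9.82e-12). CDCA7, a gene periodically expressed in the cell cycle, fell from 34.7, 35.6 and 41.3 CPM to 1.85, 1.57 and 3.51 CPM (log2FC −4.02, SE 0.19). PTGER2, a receptor of prostaglandin E2, fell by 3.92 on the log2 scale, NAV3 by 3.75, and TNS4, a focal adhesion protein also called CTEN, by 3.53.

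**Figure D1:**
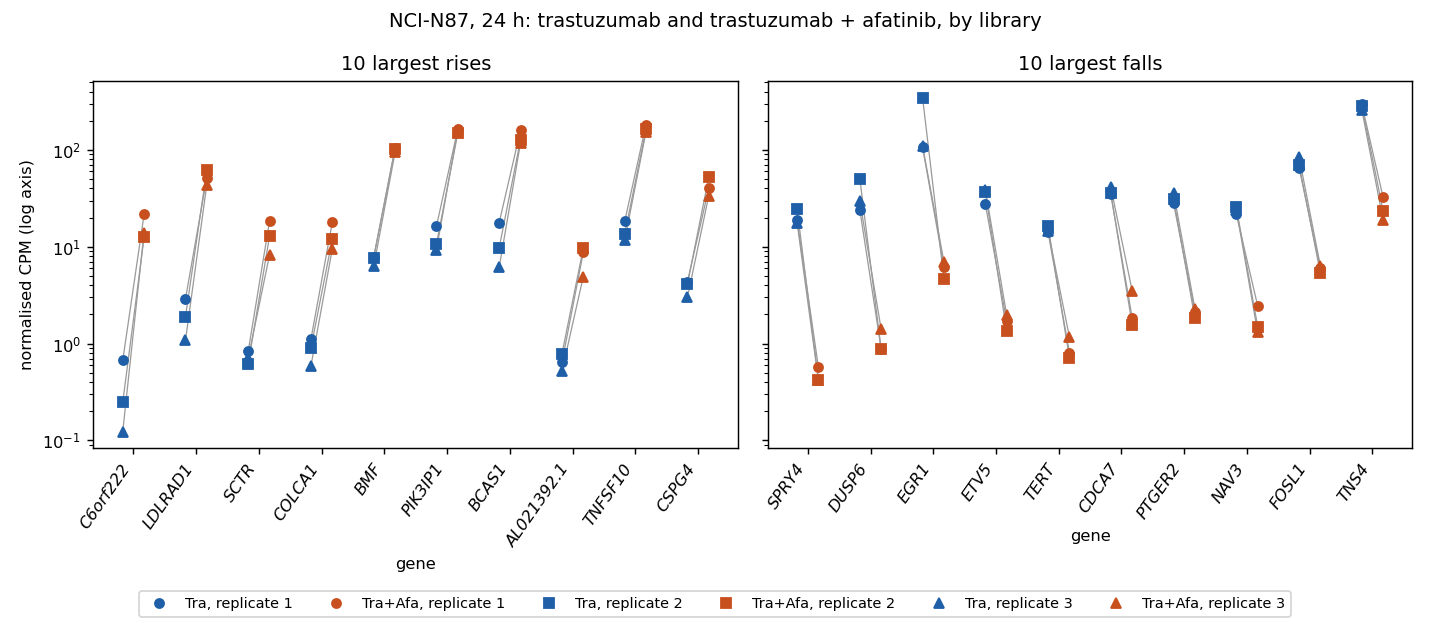
Normalised CPM (log axis) of the 10 genes with the largest rises (left) and the 10 with the largest falls (right) in NCI-N87 cells at 24 h, with 1 point per library and lines joining libraries of equal replicate number. Blue Tra points and orange Tra+Afa points do not overlap for any of the 20 genes, for example SPRY4 at 17.7 to 24.6 against 0.417 to 0.568 CPM. The genes were chosen by size and direction of change, which favours such a gap. Among all 18483 genes, 6389 had every Tra+Afa library above every Tra library and 6058 had every one below.

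Of 23 tested MAPK feedback and target genes, 18 fell and none rose, with a median log2FC of −2.06. The Sprouty and SPRED inhibitors of the cascade included SPRY2 (7.22, 8.51 and 7.03 CPM to 2, 1.63 and 1.84 CPM, log2FC −2.06), SPRED1 (log2FC −2.17) and SPRED2 (log2FC −2.16). The phosphatases DUSP4 (log2FC −3.22), DUSP5 (−2.30) and DUSP7 (−1.78) were lower in every Tra+Afa library. FOS, part of the AP-1 factor, went from 24.7, 51.7 and 17.4 CPM to 2.82, 1.99 and 3.53 CPM (log2FC −3.34, SE 0.35, adjusted p 5.84e-07). EPHA2, a receptor tyrosine kinase induced by ERK, went from 335.5, 325.3 and 269.6 CPM to 58.1, 42.8 and 44.4 CPM (log2FC −2.68). ERRFI1, a feedback inhibitor of EGFR also called MIG6, fell by 1.30 on the log2 scale. The list was not uniform, and with scaling by library total alone 1 member was called higher. SPRED3 had a log2FC of 0.53 and EPHA4 of 0.85, both with adjusted p values below 0.05 and under the fold limit, IER2 had −0.46 and SPHK1 −0.84, and EGR2 did not pass the adjusted p (0.0712).

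The 4 ERBB receptor genes moved in different directions. ERBB2, the target of trastuzumab (chr17:39687914-39730426, hg38), had 17267, 16806 and 13995 CPM with trastuzumab and 22486, 23287 and 18782 CPM with both drugs. Its groups did not overlap, but the change of 1.34-fold (log2FC 0.43, SE 0.07, adjusted p 0.000105) was under the fold limit. ERBB2 took more counts than any other gene in all 12 libraries, at 1.23% to 1.6% of the counts in the Tra and 2.03% to 2.6% in the Tra+Afa libraries. ERBB3, the kinase-impaired partner of ERBB2 (chr12:56076799-56103505, hg38), rose 3.1-fold, from 115.8, 113.5 and 92.4 CPM to 356.8, 352.4 and 286.9 CPM (log2FC 1.63, SE 0.06, adjusted p 8.69e-12). EGFR fell from 175.6, 178.4 and 153.96 CPM to 96.5, 80.1 and 67.3 CPM (log2FC −1.07, SE 0.07, adjusted p 3.65e-09). This was just past the fold limit, and with scaling by library total alone its log2FC was −0.78 and it was no longer called. ERBB4 stayed below 0.9 CPM in all 6 libraries and its groups overlapped, with a log2FC of 1.40 (SE 0.36, adjusted p 0.00271).

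Ligands of these receptors also split. AREG, EREG and HBEGF, which bind EGFR, all fell, with log2FC values of −1.90, −2.36 and −1.91. EREG went from 28.2, 32.6 and 33.3 CPM to 7.04, 5.93 and 5.28 CPM. TGFA had a log2FC of −0.76 (adjusted p 6.56e-09). BTC, a ligand of EGFR and ERBB4, rose from 8.12, 8.24 and 8.13 CPM to 17.6, 18.8 and 21.5 CPM (log2FC 1.24), and NRG4, a ligand of ERBB4, had a log2FC of 0.92. NRG1, a ligand of ERBB3, fell by 1.42 on the log2 scale at a level of 1.08 to 2.18 CPM with trastuzumab. In total 2 of 10 tested ligands rose and 4 fell, where 18.4% and 11.2% of all genes did.

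Receptor tyrosine kinases outside the family included 1 of 10 that rose and 2 that fell, where 18.4% and 11.2% of all genes did. With scaling by library total alone 3 were called higher and 1 lower, where 4720 and 1230 of all 18483 genes were. FGFR2 rose from 16.1, 19.5 and 16 CPM to 61.4, 69.1 and 59.2 CPM (log2FC 1.88, SE 0.06, adjusted p 1.83e-12), whereas FGFR4 fell from 74.5, 74.9 and 82.2 CPM to 20.7, 22.4 and 22.5 CPM (log2FC −1.82, SE 0.06). MET, the receptor of hepatocyte growth factor, fell to 164.6, 154.98 and 154.4 CPM from 319.5, 345.9 and 306.4 CPM (log2FC −1.03). Like EGFR, MET lost its call when libraries were scaled by their total alone (log2FC −0.75). INSR had a log2FC of 0.85 and IGF1R of 0.39, under the fold limit.

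**Figure D2:**
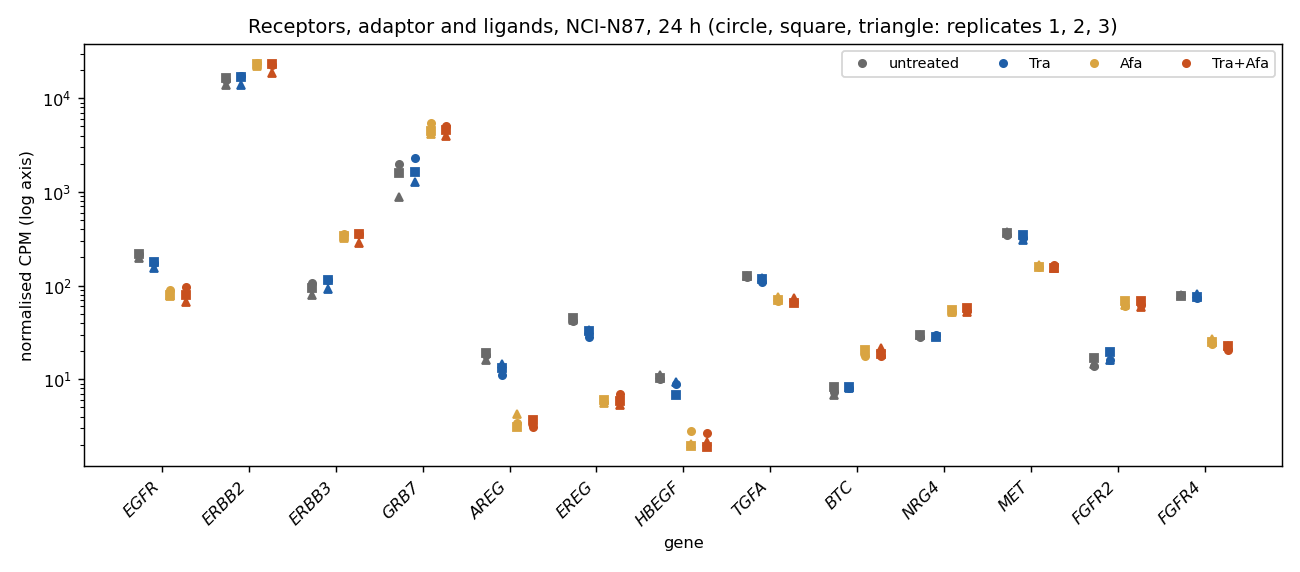
Normalised CPM (log axis) of receptor, adaptor and ligand genes in NCI-N87 cells at 24 h, with 1 point per library for untreated, Tra, Afa and Tra+Afa cells and symbols for replicates 1 to 3. Libraries with afatinib lie together whether or not trastuzumab was present, for example ERBB3 at 286.9 to 356.8 CPM against 79.7 to 115.8 CPM without afatinib.

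Genes next to ERBB2 on chromosome 17 were followed because they are often amplified with it. Of 13 tested, 5 rose and none fell, where 18.4% and 11.2% of all genes did. By adjusted p alone 9 were higher and 3 lower, against 37.1% and 35.8% of all genes. With scaling by library total alone 7 were called higher, where 4720 of all 18483 genes were. GRB7, an adaptor that binds ERBB2 (chr17:39737927-39747291, hg38), rose from 2296, 1633 and 1286 CPM to 5072, 4559 and 3943 CPM (log2FC 1.42, SE 0.13, adjusted p 8.69e-08), and GSDMB, a gasdermin, rose by a log2FC of 1.40. IKZF3 (log2FC 1.78), PNMT (1.40) and NEUROD2 (2.76) also rose at levels below 13 CPM. CDK12, a kinase of RNA polymerase II, had 1669, 1920 and 1757 CPM with trastuzumab and a log2FC of −0.59, and STARD3 and MED1 had values of −0.41 and −0.39. Neighbouring genes of the same chromosome segment had different log2FC values.

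Among 19 tested FOXO targets and genes that restrain PI3K signalling, 8 rose and 1 fell, with a median log2FC of 0.57. Besides PIK3IP1, these were FBXO32, an F-box protein of the ubiquitin system (25.7, 21.9 and 19.5 CPM to 128.9, 113.3 and 94.6 CPM, log2FC 2.32, SE 0.06), CCNG2, an atypical cyclin linked to cell cycle exit (log2FC 2.28), PDK4, which inhibits pyruvate dehydrogenase (2.19), FOXO4 (1.71), BCL6 (1.69), TXNIP, an inhibitor of thioredoxin and glucose uptake (1.36), and PINK1 (1.13). TRIB2 fell, from 65.9, 103.99 and 124.8 CPM to 13.8, 17.3 and 20.7 CPM (log2FC −2.48, SE 0.08, adjusted p 2.71e-12). IRS1, an adaptor of the insulin receptor, had a log2FC of 0.97, and CDKN1B, the inhibitor p27, of 0.50, both with adjusted p values below 0.05. FOXO1 itself did not pass (log2FC −0.08, adjusted p 0.525).

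Nearly all genes of DNA replication were lower. Of 38 tested, 36 fell and all 38 were lower by adjusted p. The median log2FC was −2.00, with values down to −3.51. MCM6, a subunit of the replicative helicase, had 144.4, 149.8 and 154.6 CPM with trastuzumab and 16.1, 15.7 and 20.3 CPM with both drugs, 8.67-fold lower (log2FC −3.12, SE 0.07, adjusted p 2.09e-13). MCM10 (log2FC −3.51), GINS2 (−3.42), CDC45 (−3.16) and CDC6 (−3.08), which load or activate that helicase, had values of similar size. PCNA, the sliding clamp of the polymerases, went from 227.5, 193.6 and 255.4 CPM to 42.5, 40.8 and 54.8 CPM (log2FC −2.29). The smallest values were those of POLD3 (log2FC −0.80) and RFC1 (−0.75). In bulk RNA, fewer cells in S phase and less of these transcripts per cell cannot be told apart.

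Enzymes that make nucleotides followed, with 18 of 20 lower and a median log2FC of −1.49. RRM2, a subunit of ribonucleotide reductase, went from 273.2, 352.9 and 361.2 CPM to 26.7, 28.2 and 35.8 CPM (log2FC −3.44, SE 0.07, adjusted p 1.02e-13). CTPS1, which makes CTP, fell by 2.95 on the log2 scale, PAICS of the purine pathway by 2.04, and TYMS, thymidylate synthase, by 1.14. SHMT1 (log2FC −0.60) and IMPDH2 (−0.63) were under the fold limit. Scaling by library total alone left 13 of the 20 called.

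Mitotic genes were lower to a smaller extent. Of 34 tested, 23 fell, 33 were lower by adjusted p, and the median log2FC was −1.11. CDK1, the kinase of mitotic entry, had 180.3, 181.5 and 229.6 CPM with trastuzumab and 46.4, 49.5 and 65.4 CPM with both drugs (log2FC −1.88, SE 0.08, adjusted p 3.72e-11). MKI67, the proliferation antigen, went from 751.5, 870.3 and 707.5 CPM to 309.2, 306.2 and 241.6 CPM (log2FC −1.44), and MYBL2, a transcription factor of the cell cycle, had the largest fall (log2FC −2.73). The smallest values among those past the adjusted p included KIF20A (log2FC −0.42), ASPM (−0.53) and CENPA (−0.68). CDC25C, the phosphatase that activates CDK1, was at 21.4, 20.3 and 25.3 CPM against 17.3, 19.1 and 22.8 CPM, with overlapping groups (log2FC −0.18, adjusted p 0.0724). Many members lay near the fold limit, and 11 rather than 23 were called when libraries were scaled by their total alone.

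Among 18 tested regulators of G1, 10 fell and 1 rose. CCND1, cyclin D1, had 344.9, 374.9 and 397.99 CPM with trastuzumab and 88.3, 78.4 and 125.05 CPM with both drugs (log2FC −1.97, SE 0.10, adjusted p 1.41e-10). CCNE1 fell by 2.49 on the log2 scale, E2F1 by 2.53, E2F2 by 2.50 and the RB relative RBL1 had a log2FC of −2.00. CDKN1C, the CDK inhibitor p57, was the 1 that rose, from 4.99, 5.03 and 5.43 CPM to 25.5, 27.6 and 37.4 CPM (log2FC 2.54, SE 0.09, adjusted p 4.96e-12). RBL2, which represses cell cycle genes in resting cells, had a log2FC of 0.95, and CDKN1A, the inhibitor p21, of −0.66.

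Within the MYC network the 2 called genes went opposite ways. MYC fell from 351.8, 386.5 and 355.9 CPM to 72.3, 85.5 and 110.9 CPM (log2FC −2.05, SE 0.11, adjusted p 2.17e-10), and MXD4, which competes with MYC for MAX, rose from 32, 29 and 21.5 CPM to 124.8, 129.6 and 122.1 CPM (log2FC 2.20, SE 0.10). MAX, the common partner, was at 65.3 to 71.4 CPM against 64.7 to 69.6 CPM (log2FC −0.02). Ribosome biogenesis factors, many of which are known MYC targets, fell in 23 of 27 cases, with a median log2FC of −1.66. LYAR had the largest value, from 42.9, 44.5 and 54.8 CPM to 6.95, 6.93 and 8.54 CPM (log2FC −2.66). NOP56 of the box C/D particles (log2FC −2.25), NOLC1 (−2.10) and POLR1B of RNA polymerase I (−1.93) were lower in all 3 pairs, whereas NOB1 did not pass (log2FC −0.14, adjusted p 0.0865).

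**Figure D3:**
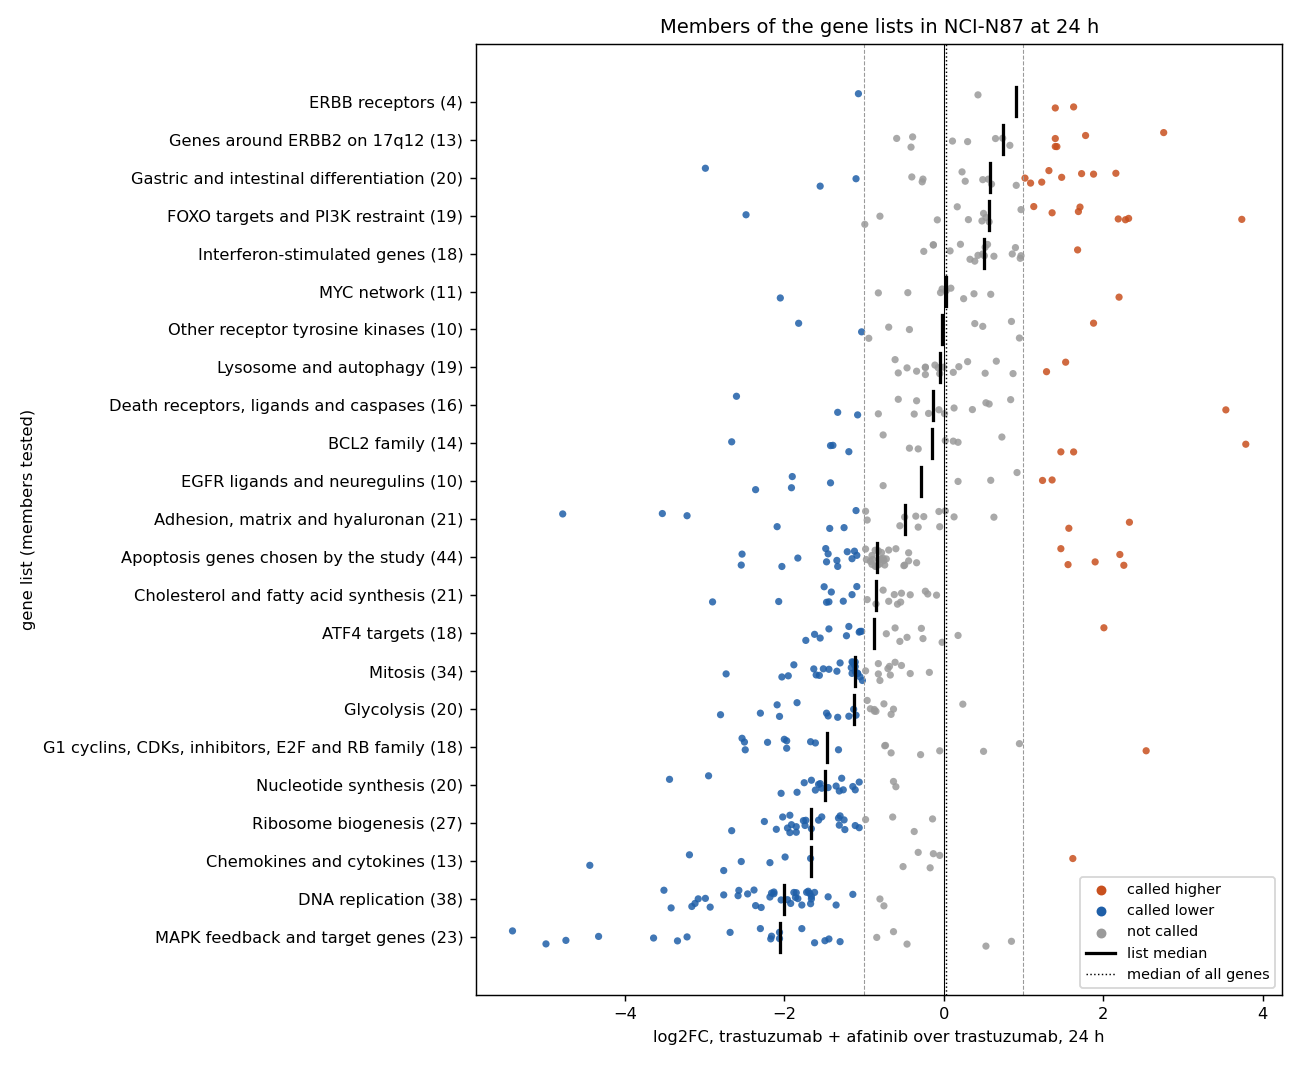
Log2FC of Tra+Afa over Tra at 24 h for every tested member of 23 gene lists (number tested in brackets), with called genes in colour, list medians as bars and dashed lines at the fold limits of −1 and 1. DNA replication and MAPK lists lie furthest to the left (medians −2.00 and −2.06), and the dotted line marks the all-gene median of 0.03.

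Of 14 tested members of the BCL2 family, 3 rose, 4 fell and 7 were not called, against 18.4% higher and 11.2% lower among all genes. Both pro- and anti-apoptotic members were among those that changed. Besides BMF, BBC3 (PUMA, a BH3-only activator) rose from 9.87, 7.27 and 9.16 CPM to 25.4, 21.3 and 25.7 CPM (log2FC 1.47, SE 0.08). BCL2L2, which encodes the anti-apoptotic BCL-W, rose by a log2FC of 1.63, and BCL2L11 (BIM) had a log2FC of 0.73 under the fold limit. BCL2, an inhibitor of apoptosis, fell from 6.33, 9 and 6.71 CPM to 1.14, 1.05 and 1.27 CPM (log2FC −2.66, SE 0.14), and BCL2L1, which encodes BCL-XL, fell from 257.8, 258.5 and 279.7 CPM to 106.2, 107.1 and 137.2 CPM (log2FC −1.19). With scaling by library total alone BCL2L1 lost its call (log2FC −0.90). MCL1 had a log2FC of −0.32. Yet 2 pro-apoptotic members, PMAIP1 (NOXA, log2FC −1.42) and BID (−1.39), fell as well.

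Of 16 tested death receptors, ligands and caspases, 1 rose, 3 fell and 12 were not called, against 18.4% higher and 11.2% lower among all genes. While TNFSF10 rose, TNFRSF10A, which encodes its receptor DR4, fell from 26.3, 28.6 and 23.4 CPM to 5.02, 4.27 and 3.53 CPM (log2FC −2.60, SE 0.11, adjusted p 2.37e-11). TNFRSF10B, which encodes DR5, had a log2FC of −1.08, which was −0.79 and not called with scaling by library total alone, and FAS had −1.33. CASP10, an initiator caspase, had a log2FC of 0.84, under the fold limit. The study drew up a list of 44 apoptosis genes from its own analysis of this data set. Its members had changed in NCI-N87 with afatinib and with both drugs together, and in neither MKN1 nor MKN7. The list therefore does not give independent evidence of direction or of how many members pass. On it, 5 genes rose and 13 fell (median log2FC −0.84). By adjusted p alone 5 were higher and 39 lower, against 37.1% and 35.8% of all genes. The genes past both criteria that rose were ZNF205, NFATC4, INHBB, GSN and BBC3. Those that fell included E2F1, PPIF and SFN, of which E2F1 is also a cell cycle gene.

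Called genes of 2 metabolic lists were all lower. Of 20 glycolysis genes, 11 fell and none rose (median log2FC −1.12). HK2, the inducible hexokinase, went from 89.7, 103.1 and 90.8 CPM to 13.8, 13 and 13.9 CPM (log2FC −2.80, SE 0.07, adjusted p 4.94e-13), and LDHA, lactate dehydrogenase A, fell by 2.09 on the log2 scale. Of 21 genes of cholesterol and fatty acid synthesis, 9 fell. SCD, stearoyl-CoA desaturase, fell by 2.07 on the log2 scale, and FASN, fatty acid synthase, by 1.47. With scaling by library total alone, 8 glycolysis and 6 lipid genes were called.

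Targets of ATF4, the transcription factor of the amino acid response, fell in 9 of 18 cases and rose in 1. PSAT1 (log2FC −1.73), TRIB3 (−1.62) and MTHFD2 (−1.55) fell, and DDIT4, an inhibitor of mTORC1, rose from 18.9, 12.2 and 26.3 CPM to 94.5, 49.8 and 85.6 CPM (log2FC 2.01, SE 0.11). Only 4 of the 9 falls were called with scaling by library total alone. In the lysosome and autophagy list, 2 of 19 genes rose, the autophagy kinase ULK1 (log2FC 1.29) and GABARAPL1 (1.53), and none fell, against 18.4% higher and 11.2% lower among all genes. CTSB, the lysosomal protease cathepsin B, had a log2FC of 0.87.

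Secreted signals were lower in most called cases. Of 13 tested chemokines and cytokines, 7 fell and 1 rose. CXCL5, a neutrophil attractant, went from 142.5, 158.3 and 218.7 CPM to 15.3, 15.6 and 26.6 CPM (log2FC −3.19, SE 0.08, adjusted p 2.99e-13), and LIF, a cytokine of the interleukin 6 family, from 148.5, 136.5 and 153.3 CPM to 32.5, 31.4 and 33 CPM (log2FC −2.18). CXCL8, interleukin 8, had a log2FC of −4.44, from a level of 2.83 to 7.53 CPM with trastuzumab. The 1 that rose, CCL28, stayed below 0.5 CPM.

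Genes of adhesion and matrix included the hyaluronan synthase HAS2, which fell from 8.53, 9 and 9.02 CPM to 0.312, 0.38 and 0.271 CPM (log2FC −4.78, SE 0.15, adjusted p 1.76e-12). F3, tissue factor, had 92.8, 87.6 and 90.4 CPM with trastuzumab and 10.8, 8.19 and 10 CPM with both drugs (log2FC −3.22). ITGA6, integrin alpha 6, fell by 2.09 on the log2 scale. TNS3, a tensin like the falling TNS4, rose from 269.01, 295.6 and 237.4 CPM to 816.1, 872.8 and 695.2 CPM (log2FC 1.57, SE 0.07). In all, 7 of 21 fell and 2 rose, where 11.2% and 18.4% of all genes did.

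The same question was asked without trastuzumab in libraries that share none with the comparison above, namely afatinib against untreated cells. Here 3627 genes (19.6%) rose and 2143 (11.6%) fell. Of the 5477 genes changed by afatinib on top of trastuzumab and the 5770 changed by afatinib alone, 4731 were in both sets with the same direction, which is 86.4% of the first and 82% of the second, and none was in both with opposite directions. Across the 18483 genes, which are not independent replicates, Pearson's r of the 2 log2FC values was 0.944. The 746 genes called only on top of trastuzumab had the same sign without it in 725 cases, and 468 of them had an adjusted p below 0.05 there. By adjusted p alone, 37.9% of all genes were higher and 36.1% lower without trastuzumab, so the 468 were not a larger share than among all genes.

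The reference groups of the 2 comparisons differed in few genes. Trastuzumab against untreated cells called 1 of 18483 genes, and by adjusted p 3 were higher and 2 lower. Both effects of afatinib were thus measured from similar starting levels. The difference between the 2 effects of afatinib was then tested gene by gene. With edgeR, no gene was called and none had an adjusted p below 0.05, although 1753 genes had an unadjusted p below 0.05, against 924 expected by chance alone. DESeq2 gave 9 genes at an adjusted p below 0.05, none of them past the fold limit, and edgeR without the filter on low counts called 10 higher and 5 lower. The half-width of the 95% interval of the difference was 0.35 on the log2 scale in the median gene. It was taken with the 6 residual degrees of freedom alone, without the information on spread that the test shares between genes. The gene with the smallest adjusted p (0.0771) was BMF, whose log2FC was 3.79 on top of trastuzumab and 4.61 without it (difference −0.82, SE 0.11). BMF had 4.69, 4.63 and 3.7 CPM in untreated and 105.3, 104.5 and 108.4 CPM in afatinib-only cells, so its libraries with afatinib lay at 94.6 to 108.4 CPM whether or not trastuzumab was present. SPRY4 and HAS2 had larger falls without trastuzumab (log2FC −6.03 and −5.83), but neither difference passed the test.

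**Figure D4:**
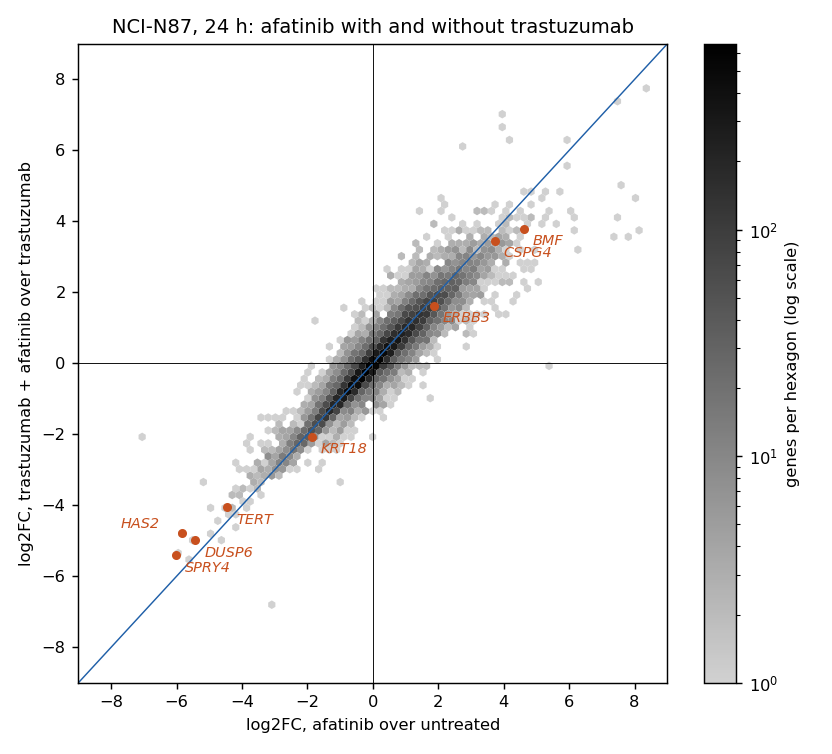
Log2FC of afatinib over untreated cells (horizontal) against log2FC of trastuzumab + afatinib over trastuzumab (vertical) for 18483 genes of NCI-N87 cells at 24 h, as counts of genes per hexagon (log grey scale) with the line of equality in blue. Genes follow the line (r 0.944), and BMF (4.61 and 3.79) and SPRY4 (−6.03 and −5.41) are among the named points.

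At 4 h, trastuzumab + afatinib against trastuzumab changed fewer genes in NCI-N87 cells, with 603 (3.16%) higher and 368 (1.93%) lower. The log2FC at 24 h minus that at 4 h was tested in a fit over 24 NCI-N87 libraries, and 1779 genes (9.32%) were larger and 1377 (7.22%) smaller at 24 h. Of the genes called at 4 h, 429 rose and 252 fell at both times, 70.1% of the 4 h set and 12.2% of the 24 h set, while 3 turned from higher to lower and 7 from lower to higher. MAPK genes were already low at 4 h, where 19 of 23 fell with a median log2FC of −1.66. SPRY4 had 30.9, 39.8 and 36.4 CPM with trastuzumab and 1.67, 1.77 and 1.35 CPM with both drugs at 4 h. BMF also rose early, from 2.49, 2.81 and 2.46 CPM to 40.2, 34 and 33.9 CPM, and its log2FC at 4 h was 3.78 (difference between the times 0.02, SE 0.15, adjusted p 0.939). MYC (log2FC −2.10) and CCND1 (−1.67) fell at 4 h as well.

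DNA replication genes, by contrast, had no call at 4 h and a median log2FC of −0.00 there. MCM6 was at 153.7, 118.6 and 146.7 CPM with trastuzumab and at 150.3, 110.8 and 139.2 CPM with both drugs after 4 h. The difference between the times was called lower for 36 of 38 replication genes and for 33 of 34 mitosis genes. At 4 h, 21 of 34 mitosis genes were higher by adjusted p, against 17.1% of all genes. CDC25C rose from 19.3, 19.5 and 22.6 CPM to 46.9, 43.7 and 48.2 CPM (log2FC 1.18, SE 0.07, adjusted p 6.05e-11). Ribosome biogenesis genes lay between, with 3 of 27 called lower at 4 h, 24 lower by adjusted p against 17.4% of all genes, and a median of −0.51. The change of the MAPK target ETV5 grew with time, with a log2FC of −1.46 at 4 h and a difference of −2.87 (SE 0.16, adjusted p 2.78e-12).

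In MKN7, another gastric cancer line of the series, the same comparison at 24 h called 1603 genes (7.93%) higher and 436 (2.16%) lower. The log2FC in NCI-N87 minus that in MKN7 was called higher for 1234 genes (6.11%) and lower for 1317 (6.52%), where the number of lower genes was 826 when replicate 2 was left out, and where the higher share of the called differences, 48.4%, was 56.1% with DESeq2 size factors and 66.2% with library totals alone. ERBB2 was at 6059, 5996 and 4641 CPM in the Tra libraries of MKN7.

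MAPK genes fell in both lines, 19 of 23 in MKN7 with a median log2FC of −1.51. The difference between lines was called lower for 5 of the 23 and higher for 2, where 6.52% and 6.11% of all genes were. SPRY4 had 4.01, 5.34 and 10.6 CPM with trastuzumab and 0.327, 0.0756 and 0.298 CPM with both drugs in MKN7, and for its log2FC of −4.85 the difference between lines did not pass the test (−0.57, SE 0.55, adjusted p 0.437). For the 38 replication genes no call was made in MKN7, where all 38 were lower by adjusted p against 25.5% of all genes, with a median log2FC of −0.64, and the difference between lines was called lower for 31. MCM6 had 100.5, 117.5 and 107.1 CPM with trastuzumab and 59.6, 66.5 and 77.7 CPM with both drugs in MKN7 (log2FC −0.68), a difference of −2.45 between lines (SE 0.11, adjusted p 6.11e-14). For mitosis genes this difference was called lower for 3 of 34, where 6.52% of all genes were. By adjusted p it was lower for 29 of the 34, against 27.2% of all genes, with a median of −0.47. Among ribosome biogenesis genes 14 of 27 were called lower for the difference.

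Some rises differed between the lines too. BMF went from 4.45, 4.89 and 4 CPM to 12.1, 10.4 and 9.9 CPM in MKN7 (log2FC 1.27), with a difference of 2.50 between lines (SE 0.13, adjusted p 4.83e-13). ERBB3 had a log2FC of 0.55 in MKN7 (difference 1.06, SE 0.07, adjusted p 5.47e-11), and GRB7 of 0.16 (difference 1.24, SE 0.15). KLF4, a transcription factor of epithelial differentiation, rose in NCI-N87 from 75.7, 66.1 and 86.3 CPM to 147.2, 135.95 and 178.96 CPM (log2FC 1.02) and fell in MKN7 from 32.1, 30.8 and 43.7 CPM to 13.7, 14.4 and 18.6 CPM (log2FC −1.18), a difference of 2.18 (SE 0.08, adjusted p 1.53e-15). DDIT4 rose in NCI-N87 (log2FC 2.01) and had a log2FC of −0.79 in MKN7, under the fold limit.

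**Figure D5:**
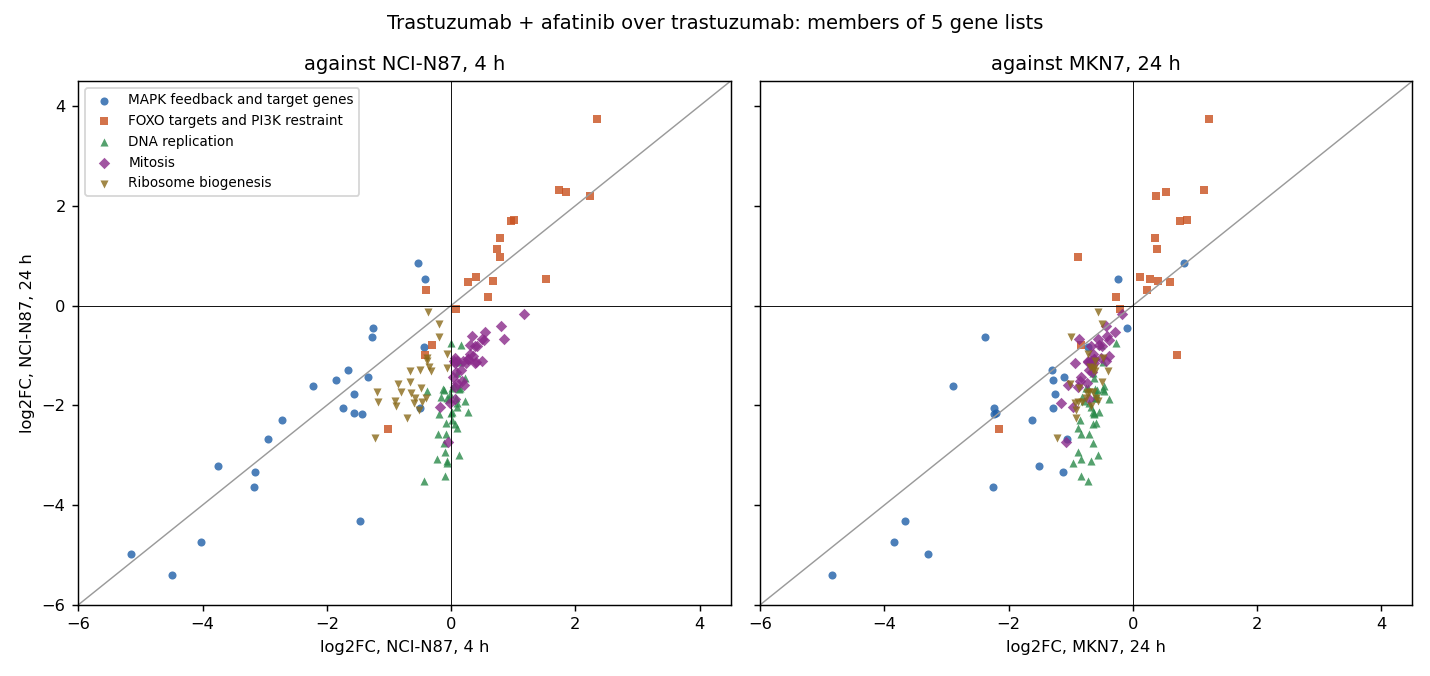
Log2FC of Tra+Afa over Tra in NCI-N87 at 24 h (vertical) against the log2FC at 4 h in NCI-N87 (left) and at 24 h in MKN7 (right), with 1 point per gene of 5 lists and the line of equality in grey. MAPK genes lie along the line at 4 h (median −1.66), whereas DNA replication genes stand in a column near 0 on the left (median −0.00) and near −0.64 on the right.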

How the data were processed

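Libraries were made from polyA RNA of NCI-N87 and MKN7 cells. The authors deposited 1 file per library with raw counts per Ensembl gene, and the submitters' processing notes name Trim Galore, STAR and hg38. The counting tool, its strand setting and the annotation are not given in the sources used here. Gene symbols were taken from GENCODE release 29, which lacks identifiers holding 0.05122% of the counts, and counts on the 37 mitochondrial identifiers were 0. Counts of the 12 NCI-N87 libraries at 24 h were fitted in edgeR 4.0.16 (R 4.3.3) with trimmed mean of M values scaling, filterByExpr defaults (minimum count of 10), a quasi-likelihood test with replicate number as block, 6 residual degrees of freedom and Benjamini-Hochberg adjustment. The 4 h comparison and MKN7 were each fitted with the NCI-N87 libraries they were compared with (24 libraries per fit), so CPM there are normalised within that fit. Same-numbered libraries deviated together from their group means (r 0.325 to 0.817 in 18 pairs, against −0.71 to 0.23 in 36 other pairs, over 12347 genes), which is why the number was used as a block. The number was taken from the labels, which do not say what it marks. Genes were named as members of the gene lists, as drug targets, or, for the main comparison, as the 10 largest changes in each direction, and for the other comparisons as the 3 largest, with a mean log2 CPM above 1 and 1 direction in all pairs. A few others named in the text were chosen after their values were seen. Members and lists were chosen with earlier results of these data known. DESeq2 1.42.0, other scalings, filters, fits and leaving out each replicate served as alternatives, and the fit was tested on simulated counts. The simulation changed 200 genes, equally many up and down, so it could not test how results depend on scaling. The labels call the replicates biological triplicates and say no more of their origin. Of the 132 files, 48 were read and 84 were not used here. Values of a few list members are not reported here.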

Additional observations from a re-analysis of the deposited data

Results flagged for a closer look

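Each result listed here differed between time points or between cell lines by a test of the difference itself, under the adjusted p and the fold limit. Between 24 h and 4 h in NCI-N87, the log2FC of Tra+Afa over Tra was larger for 1779 genes and smaller for 1377. The 3 largest positive differences among genes above the level limit were those of BCAS1 (3.04), the glutamate transporter SLC1A1 (2.95) and CSPG4 (2.93). SLC1A1 had 5.52, 4.27 and 3.32 CPM with trastuzumab and 37.9, 37.1 and 24.8 CPM with both drugs at 24 h, and its log2FC at 4 h was −0.01. The 3 largest negative differences were those of CDCA7 (−3.57), GINS2 (−3.32) and TERT (−3.30), with log2FC values at 4 h of −0.45, −0.09 and −0.76.

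Between NCI-N87 and MKN7 at 24 h, the log2FC was larger in NCI-N87 for 1234 genes and smaller for 1317. GRAMD1B, a sterol transport protein, had the largest positive difference (4.84), with 0.809, 0.659 and 0.59 CPM against 7.26, 7.78 and 4.34 CPM in NCI-N87 and 48.8, 34.7 and 81 CPM against 18.3, 14.6 and 17.2 CPM in MKN7. PXDN, a peroxidase of the extracellular matrix, followed with 3.82, from a log2FC of 1.83 in NCI-N87 and of −2.01 in MKN7. BCAS1 had a difference of 3.36, but stayed below 0.22 CPM in MKN7. The negative differences were those of the long noncoding RNA AC104024.2 (−4.23), the growth factor BMP6 (−4.06) and WNT10B (−3.82). BMP6 and WNT10B fell in NCI-N87 (log2FC −3.43 and −2.93), and in MKN7 they had log2FC values of 0.61 and 0.88, with adjusted p values of 0.0211 and 3.16e-05.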

How the results depend on the processing

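No called value of the named or listed genes reversed under any alternative, and 47 of the 263 called among them lost the call under at least 1. Scaling by library total alone lowered the number of genes called lower to 1230 (afatinib alone 1381, 24 h minus 4 h 837) and moved the median log2FC by 0.29; the cause was not tested. A minimum of 10 counts in every library, which tests fewer genes, gave 2180 higher genes (afatinib alone 2346, NCI-N87 minus MKN7 820 higher and 648 lower). Adjusted p alone gave 13463 genes in place of 5477. For the difference in afatinib effect with and without trastuzumab, edgeR without a filter called 10 and 5 genes in place of 0 and 0. Leaving out 1 replicate at a time gave 3207 to 3340 higher and 2045 to 2099 lower genes, for afatinib alone 3353 to 3581 and 2089 to 2192, for 24 h minus 4 h 1444 to 1676 and 1203 to 1314, for NCI-N87 minus MKN7 1019 to 1412 and 826 to 1183, and 0 for the difference with and without trastuzumab. Without the replicate block, 3308 genes were higher and 2021 lower, and the pairing moved no count of called genes by over 1.5 times. Genes below about 0.07 CPM lie within 3 counts of 0 and could not be measured.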

Other observations

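Markers of gastric and intestinal differentiation moved in both directions. Of 20 tested, 8 rose and 3 fell, where 18.4% and 11.2% of all genes did, and the median log2FC was 0.58. MUC5AC, the secreted mucin of the gastric surface, went from 124.3, 120.7 and 83.8 CPM to 13.8, 19.1 and 9.33 CPM (log2FC −2.99, SE 0.11, adjusted p 6e-12), whereas MUC5B, another secreted mucin, went from 12.3, 9.35 and 5.67 CPM to 45.7, 39 and 34.3 CPM (log2FC 2.16). CDX2, a transcription factor of intestinal identity, rose from 73, 63.9 and 91.8 CPM to 156.00, 163.8 and 213.8 CPM (log2FC 1.23, SE 0.06, adjusted p 1.05e-10) and had a log2FC of 1.16 at 4 h. The epithelial keratins KRT18 (log2FC −2.07) and KRT8 (−1.57) fell, while CDH1, which encodes E-cadherin, had a log2FC of 0.06 (adjusted p 0.488).

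Interferon-stimulated genes had a median log2FC of 0.50, and 12 of 18 were higher by adjusted p, against 37.1% of all genes. STAT2 alone was called, where 18.4% of all genes rose. With scaling by library total alone 5 were called higher, where 4720 of all 18483 genes were. Afatinib without trastuzumab gave 3 rises, against 19.6% of all genes. STAT2 went from 68.9, 63.1 and 53.5 CPM to 183.8, 220.1 and 189.9 CPM (log2FC 1.68, SE 0.09). MX1 (log2FC 0.97) and IFI44 (0.86) were just under the fold limit, and ISG15 (−0.13) did not pass.

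Transcript classes differed in how often they were called. Of 13900 protein-coding genes 13.7% rose and 12.6% fell, while of 1585 long intergenic noncoding RNAs 39.7% rose and 5.8% fell, and of 1220 antisense RNAs 32.6% rose and 5% fell. The shares also moved with level: protein-coding genes with a mean log2 CPM of 1 or below rose in 36.1% of cases and those above in 8.06%, while 7.61% and 13.8% fell. Noncoding genes of both classes rose in 38.4% and 32.1% of cases at the same levels, and 5.61% and 5.07% fell. With scaling by library totals alone the shares that rose were 45.7%, 13.1%, 49.5% and 43.7%.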
